A study of Mus musculus with 2 samples.

Results

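The Gimap family is a set of 8 genes, Gimap1 and Gimap3 to Gimap9, taken here as every row of the deposited matrices that bears 1 of these symbols, 8 of 31053 genes. That rule uses no measured value. The cells came from liver of 1 adult Gimap5sph/sph mouse and 1 adult Gimap5sph/+ mouse, both of C57BL/6 background, and were sorted as endothelium by CD31, with dead cells and CD45-bearing leukocytes gated out. Both mice carry the sphinx (sph) allele of Gimap5, a missense change, so neither library is wild type. Each mouse gave 1 droplet library of 3' transcript ends, counted as unique molecular identifiers (UMIs). With 1 library per genotype there is no test between genotypes and no p-value, and effects of the library cannot be told apart from those of the genotype. Intervals are 95% exact ranges (Poisson for levels, Clopper-Pearson for shares, the binomial of the pooled count for ratios) and cover counting error only.

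GIMAP proteins, the GTPases of immunity-associated proteins, share a GTP-binding domain and are best known in lymphocytes, where several of them act in survival and in traffic at internal membranes. Loss of GIMAP5 in mice brings lymphocyte loss and liver disease. The family is also expressed in endothelium, the cell type sorted here.

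In GRCm38 the 8 genes lie side by side on chromosome 6, from 48647234 to 48770851, a span of 123.6 kb. Gimap8 (ENSMUSG00000064262), which encodes a member with several GTPase domains, opens the cluster at 48647234 to 48660875 on the plus strand. Gimap9 (ENSMUSG00000051124) follows at 48676129 to 48679114, and Gimap4 (ENSMUSG00000054435), which acts in T cell death, at 48684549 to 48692060, both on the plus strand. Gimap6 (ENSMUSG00000047867), a partner of the autophagy protein GABARAPL2, lies on the minus strand at 48701582 to 48708225. Gimap7 (ENSMUSG00000043931), whose human counterpart hydrolyses GTP as a dimer, runs from 48718621 to 48724636 on the plus strand. Gimap1 (ENSMUSG00000090019), needed for mature lymphocytes in mice, spans 48739054 to 48743795, and Gimap5 (ENSMUSG00000043505) spans 48746197 to 48754210, both on the plus strand. Gimap3 (ENSMUSG00000039264), a mitochondrial member in mice, closes the cluster on the minus strand at 48764464 to 48770851. A read-through gene, Gm28053, overlaps 3.5% of the exonic bases of Gimap7, 6.4% of Gimap1 and 3.7% of Gimap5, and none of the last 1000 bases of any member's transcript. It had 1 UMI in sph/sph and 0 UMIs in sph/+ endothelial cells. No 90-base window of those last 1000 bases of any member occurred in another gene, so 3' reads of neighbouring members can be told apart.

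The promoter windows of 4 members are shown because the results below turn on them: the pair with the most UMIs (Gimap4, Gimap6), the member that carries the allele (Gimap5) and the member whose pattern over cell classes departs most from the family (Gimap1). Each window is from RefSeq (GRCm38.p6), holds 250 bases before to 50 after a transcription start, and is written 5′ to 3′ along the gene. Capitals mark AGGAAG or its reverse complement CTTCCT, letters found at the core of some ETS factor sites.
Gimap4, chr6:48684328-48684627, plus strand: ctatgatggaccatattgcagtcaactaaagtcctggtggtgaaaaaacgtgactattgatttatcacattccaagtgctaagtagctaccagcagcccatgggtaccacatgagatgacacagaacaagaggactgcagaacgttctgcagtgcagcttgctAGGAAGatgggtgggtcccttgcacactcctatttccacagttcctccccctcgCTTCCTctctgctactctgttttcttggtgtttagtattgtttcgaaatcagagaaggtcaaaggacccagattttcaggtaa
Gimap6, chr6:48708195-48708494, minus strand: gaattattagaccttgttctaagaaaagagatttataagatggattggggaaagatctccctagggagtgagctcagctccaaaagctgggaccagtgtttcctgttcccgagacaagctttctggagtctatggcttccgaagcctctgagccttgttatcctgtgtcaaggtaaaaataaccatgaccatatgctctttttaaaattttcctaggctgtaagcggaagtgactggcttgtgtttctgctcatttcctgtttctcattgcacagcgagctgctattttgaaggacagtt
Gimap1, chr6:48738797-48739096, plus strand: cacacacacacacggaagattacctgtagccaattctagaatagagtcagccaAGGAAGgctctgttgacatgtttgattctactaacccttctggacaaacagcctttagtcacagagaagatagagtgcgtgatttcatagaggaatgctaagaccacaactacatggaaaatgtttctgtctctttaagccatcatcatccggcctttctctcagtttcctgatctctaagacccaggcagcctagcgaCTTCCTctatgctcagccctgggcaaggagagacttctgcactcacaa
Gimap5, chr6:48745947-48746246, plus strand: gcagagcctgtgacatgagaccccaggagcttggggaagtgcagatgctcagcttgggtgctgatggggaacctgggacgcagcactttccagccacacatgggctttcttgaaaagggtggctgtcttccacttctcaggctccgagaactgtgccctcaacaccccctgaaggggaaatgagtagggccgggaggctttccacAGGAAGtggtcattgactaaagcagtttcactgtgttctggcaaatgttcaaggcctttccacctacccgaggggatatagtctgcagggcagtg
All 8 members had a window in the RefSeq table, and Gimap8 had 2, making 9 windows. AGGAAG, searched on both strands like every motif here, was in 7 of the 9 windows, against 35.4% of 32851 mouse windows of that length. It was in a window of 7 of the 8 members, and Gimap6 was the member without it. Among the printed windows, those of Gimap6 and Gimap1 hold cggaag, which differs in the first letter. It was not counted, here or over all windows. TGTGGT, a core of RUNX sites, was in the windows of Gimap4, Gimap7 and Gimap1, against 16.8% of all windows. CACCC, bound by KLF factors, was in 6 of the 9 windows, of 5 members, against 57.5%. TTCNNNGAA, bound by STAT factors, was in 4 windows, of 4 members, against 8.3%. AGATAA, bound by GATA factors, was in none of the 9 windows, against 11.2%. The sole overlap of different motifs was AGGAAG with TTCNNNGAA in a window of Gimap8. A match of letters describes the sequence and shows no binding.

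Barcodes were kept on size and mitochondrial share, and doublets were removed, which left 11321 cells in sph/sph and 10980 cells in sph/+. Of these, 10365 (91.6%) in sph/sph and 10328 (94.1%) in sph/+ had UMIs of at least 5 of 13 pan-endothelial markers and were not marked by another cell type. They held 49768838 and 47605344 UMIs, with medians of 3909 UMIs per cell in sph/sph and 4357 in sph/+. Pecam1, which encodes the CD31 used for the sort, was at 1047 UMIs per 1000000 UMIs of its cells (CPM) in sph/sph and 722 CPM in sph/+. Ptprc, which encodes CD45, had 3 and 2 UMIs in all. The libraries share 30 barcodes, of which 19 are in both sets of kept cells, and they were left in. Because lymphocytes express this family, their markers were counted in the endothelial cells. The 7 T cell markers had 60 UMIs in sph/sph (4 of 7 detected, Cd3e, Cd3g and Trbc2 at 0) and 1 UMI in sph/+, the 5 B cell markers 18 and 8 UMIs, and the 4 NK cell markers 3 and 0 UMIs. The 6 broad leukocyte markers had 103 UMIs in sph/sph and 377 in sph/+. In cells without any such UMI the summed family level was 1158 CPM in sph/sph and 1416 CPM in sph/+, close to the 1154 CPM and 1414 CPM over all endothelial cells.

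Of the members, 6 were abundant in liver endothelium of both mice, and Gimap7 and Gimap3 were almost absent. UMIs of the 3' kit do not scale with transcript length, so levels are set side by side between genes. Gimap6 led with 19187 UMIs (386 CPM) in sph/sph and 24075 UMIs (506 CPM) in sph/+, rank 351 and rank 263 among all genes. Gimap4 was next at 17208 UMIs (346 CPM) in sph/sph and 20646 UMIs (434 CPM) in sph/+. Those members together held 63.4% of the family's UMIs in sph/sph and 66.4% in sph/+. Gimap1 had 8817 UMIs (177 CPM) and 9405 UMIs (198 CPM), in sph/sph and in sph/+. Gimap5, the gene with the allele, had 5246 UMIs (105.4 CPM) in sph/sph and 5005 UMIs (105.1 CPM) in sph/+. The allele is missense, so this level does not check the genotype labels. Gimap8 had 3547 UMIs (71.3 CPM) in sph/sph and 5051 UMIs (106 CPM) in sph/+, and Gimap9 had 3385 UMIs (68.0 CPM) in sph/sph and 3116 UMIs (65.5 CPM) in sph/+. Gimap8 and Gimap9 stood next to each other in the order of sph/sph, at 71.3 CPM (68.9 to 73.7) and 68.0 CPM (65.7 to 70.3), with overlapping intervals. Gimap8 and Gimap5 did so in sph/+, at 106 CPM (103 to 109) and 105.1 CPM (102 to 108), and no other neighbours among the 6 overlapped. Gimap7 had 24 UMIs in sph/sph and 8 UMIs in sph/+, and Gimap3 had 2 UMIs in each library.

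**Figure D1:**
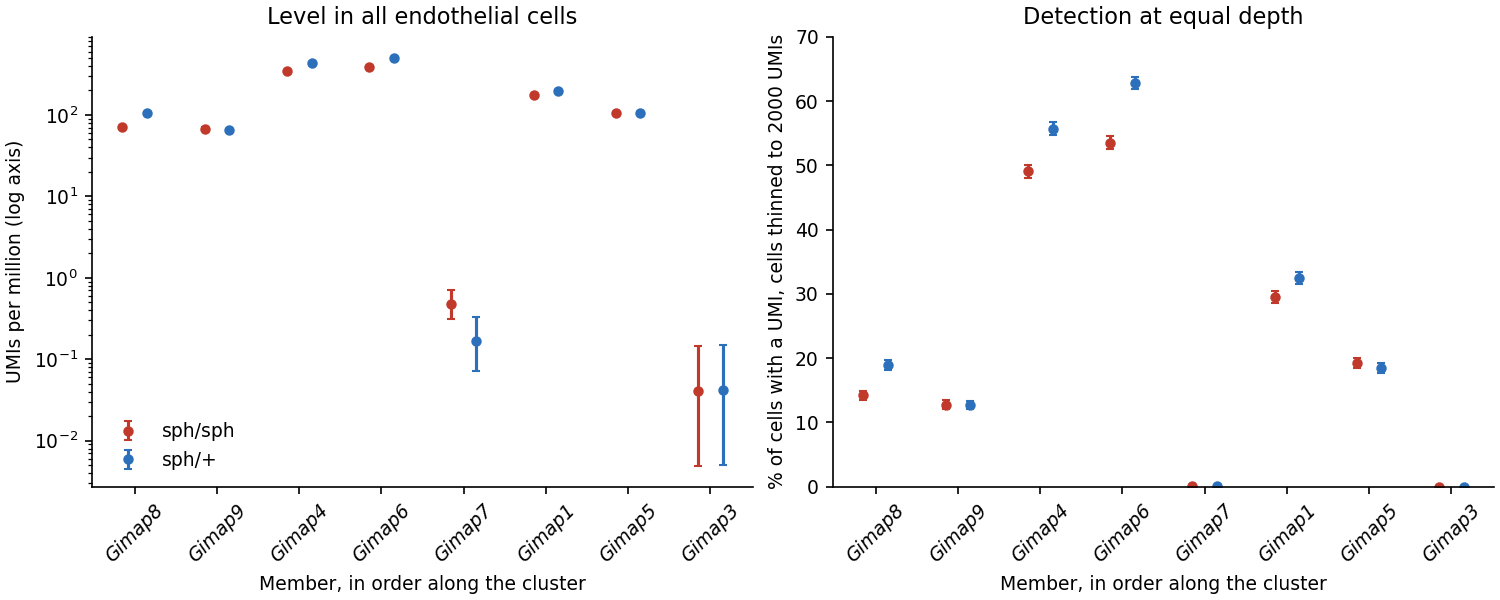
Left, CPM of each member over all endothelial cells, on a log axis, with 95% exact Poisson intervals. Right, the share of cells with a UMI after thinning every cell to 2000 UMIs, with 95% exact binomial intervals. Red points (sph/sph) and blue points (sph/+) lie together for Gimap9 and Gimap5, and the red points are lower for Gimap8, Gimap4, Gimap6 and Gimap1.

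Nearly every endothelial cell had a transcript of the family. A UMI of any member was found in 96.6% of sph/sph cells (96.2 to 96.9) and in 98.6% of sph/+ cells (98.4 to 98.8). Depth sets such shares, so each cell was thinned to 2000 UMIs, which left out 845 shallower cells in sph/sph and 407 in sph/+. At that depth a member was found in 88.2% of 9520 sph/sph cells (87.6 to 88.9) and 93.0% of 9921 sph/+ cells (92.4 to 93.5). Gimap6 was found in 53.5% of thinned sph/sph cells and 62.9% of thinned sph/+ cells, and Gimap4 in 49.1% and 55.7%. Gimap5 was found in 19.2% (18.4 to 20) in sph/sph and 18.4% (17.7 to 19.2) in sph/+, ranges that overlap. Free RNA can place a UMI in a cell that does not express a gene. In sph/sph, Gimap6 was found in 75.4% of unthinned endothelial cells, at a median of 3909 UMIs, against 3.23% of 93 hepatocyte-marked barcodes with at most 2 pan-endothelial markers, at a median of 1578 UMIs. In sph/+, it was found in 84.7% of endothelial cells, at a median of 4357 UMIs, against 1.61% of 62 cholangiocyte-marked barcodes of that kind, at a median of 8650 UMIs. A UMI of any member was in 18.3% of those sph/sph barcodes and 46.8% of those sph/+ barcodes. In the sph/+ barcodes, 31 of the 45 family UMIs were of Gimap9. The part of free RNA in the family share above was not tested. In sph/sph, Gimap9 was in 25.7% of endothelial cells and 7.53% of those barcodes. In sph/+ it was in 24.96% of endothelial cells and 37.1% of the deeper barcodes, at 65.5 CPM and 52.7 CPM (35.8 to 74.8). The detection of Gimap9 in sph/+ endothelial cells was therefore not above that in these barcodes. Gimap4 had 5 UMIs and Gimap6 had 1 UMI in them. Whether their Gimap9 UMIs are free RNA or their own transcripts was not tested.

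Across all endothelial cells the family as a whole was lower in the sph/sph library, at 1154 CPM (57416 UMIs), against 1414 CPM (67308 UMIs) in sph/+, a ratio of 0.816 (0.807 to 0.825). The members did not move alike. The ratio of sph/sph over sph/+ was 0.672 (0.643 to 0.701) for Gimap8, 0.762 (0.748 to 0.777) for Gimap6 and 0.797 (0.781 to 0.814) for Gimap4. It was 0.897 (0.871 to 0.923) for Gimap1, 1.003 (0.964 to 1.04) for Gimap5 and 1.04 (0.989 to 1.09) for Gimap9. None of the 6 members with at least 20 CPM in either library was 1.5-fold higher or 1.5-fold lower in sph/sph, where 18.8% of 7462 such genes were higher and 22% were lower. Gimap8 lay just inside the bound, and it passed it with a stricter cell filter, at a log2 ratio of -0.64 against -0.57. Gimap7 was 2.87-fold higher (1.25 to 7.39) on 24 and 8 UMIs, below the level needed to be measured. The make-up of the libraries differs, since 1039 sph/sph and 10 sph/+ cells bore lymphatic markers and 710 and 131 bore cycling markers. Without both classes the log2 ratio of the family was -0.11, against -0.29 with them.

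Cells were placed in classes by the number of distinct subtype markers with a UMI, none of them a Gimap gene. Such a class is a range of marker counts and not a cell type. Liver sinusoidal endothelial cells (LSECs) line the fenestrated sinusoids, while capillary, arterial and large-vessel endothelium lines continuous vessels. LSEC-marker cells (at least 6 of 12 LSEC markers and more of them than of capillary markers) made up 208 cells (2.01%) of the sph/sph endothelium and 9793 cells (94.8%) of the sph/+ endothelium. Of these, 92 and 45 cells lay exactly at the minimum. Capillary-marker cells, by the mirrored rule, were 6349 (61.3%) in sph/sph, 572 of them at the minimum, and 3 in sph/+. Lymphatic-marker cells (4 of 7) were 1039 in sph/sph, 147 at the minimum, and 10 in sph/+. Large-vessel-marker cells (5 of 10) were 485 in sph/sph, 169 at the minimum, and 275 in sph/+, 106 at the minimum. They differ in other markers, with a median of 2 LSEC markers in sph/sph and 6 in sph/+. Lymphatic-marker cells of sph/sph also had a median of 4 large-vessel markers and 4 capillary markers beside 5 lymphatic ones.

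The summed family level ranged from 649 to 1433 CPM over the 12 classes of at least 50 cells, and 6 of them lay between 1325 and 1433 CPM. In sph/sph it was 1433 CPM (1368 to 1501) in LSEC-marker cells and 1357 CPM (1342 to 1371) in capillary-marker cells. It was 1354 CPM in the low-LSEC-marker cells, which had at least 3 LSEC markers, and 1325 CPM in arterial-marker cells, with intervals that overlap those of the capillary-marker cells. Cycling-marker cells had 1126 CPM, large-vessel-marker cells 866 CPM and lymphatic-marker cells 649 CPM, each below the class before it beyond counting error. Unnamed endothelial cells, with too few markers of any class, had 1226 CPM in sph/sph. In sph/+ the level was 1430 CPM in both the LSEC-marker and the cycling-marker cells, and 1041 CPM and 1036 CPM in arterial-marker and large-vessel-marker cells.

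**Figure D2:**
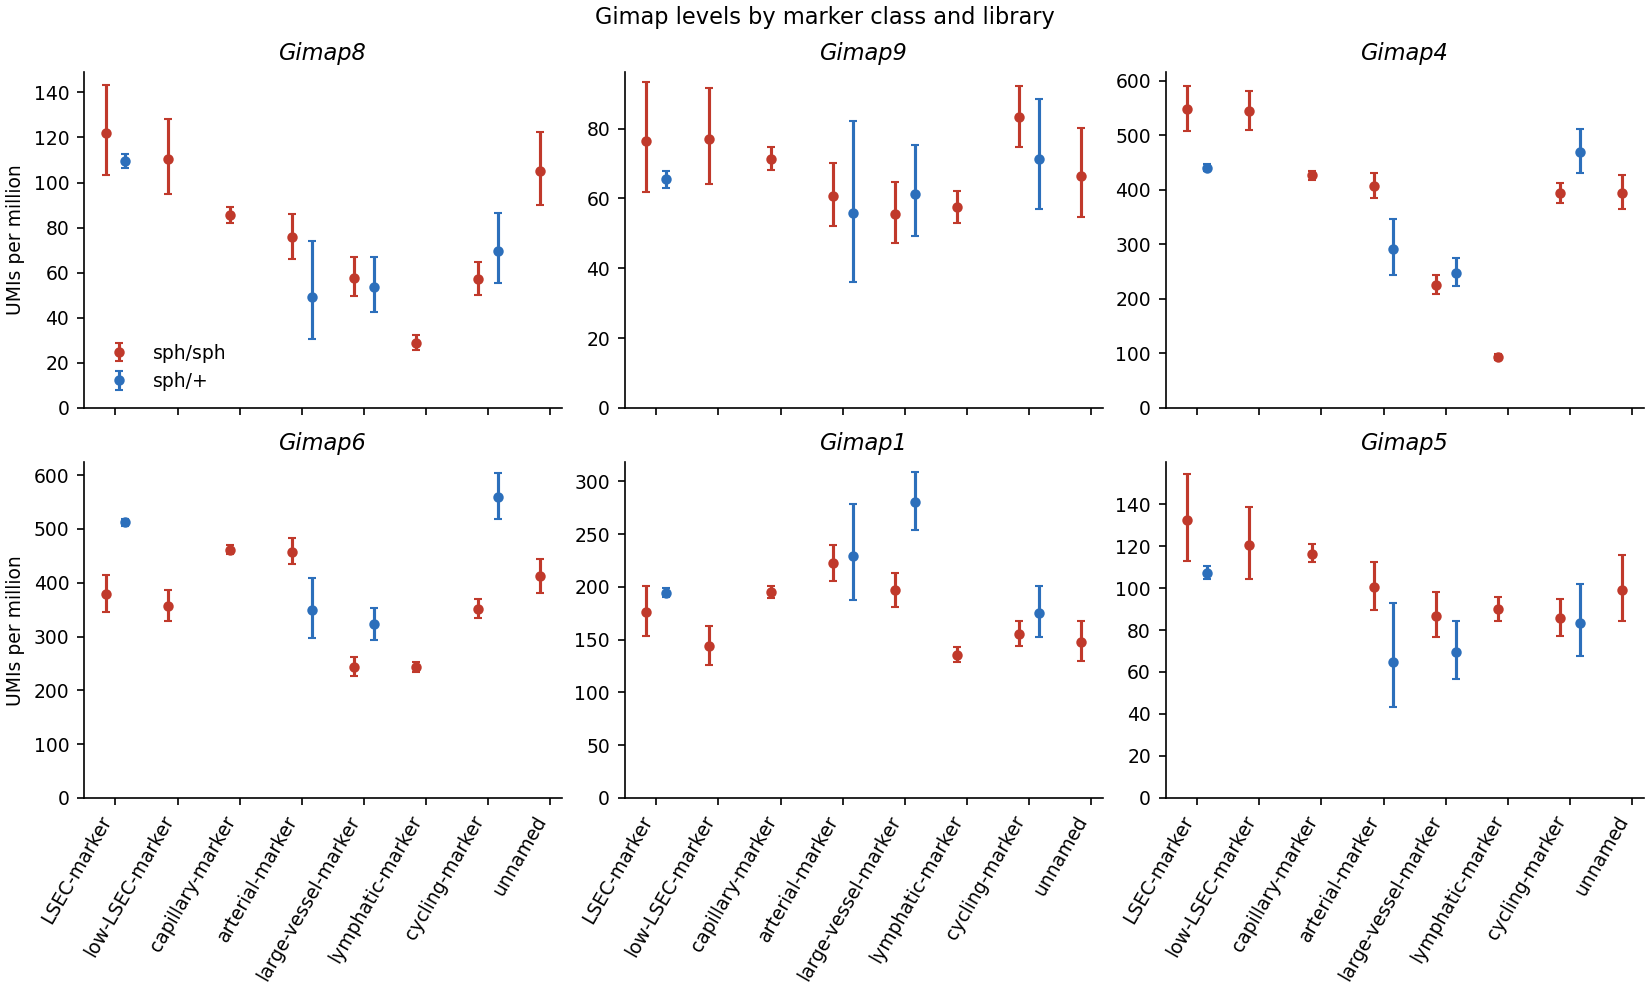
CPM of the 6 abundant members in each marker class with at least 50 cells, sph/sph in red and sph/+ in blue, with 95% exact Poisson intervals. Gimap4 is lowest in lymphatic-marker cells at 92.8 CPM, and Gimap1 is highest in large-vessel-marker cells of sph/+ at 280 CPM.

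Lymphatic-marker cells of sph/sph had the lowest share of family transcripts, with the steepest drop in Gimap4. Gimap4 had 975 UMIs (92.8 CPM) in lymphatic-marker cells and 10433 UMIs (426 CPM) in capillary-marker cells of the same library, a ratio of 0.218 (0.204 to 0.233). Gimap8 was at 28.9 CPM in lymphatic-marker and 85.6 CPM in capillary-marker cells (ratio 0.338), and Gimap6 at 244 CPM and 461 CPM (ratio 0.528). Gimap1 was at 136 CPM and 195 CPM (ratio 0.695), Gimap5 at 89.96 CPM and 116 CPM (0.773), and Gimap9 at 57.4 CPM and 71.4 CPM (0.804). So 3 of the 6 members were at least 1.5-fold lower and none was higher, where 24.3% of all 7235 measured genes were lower and 20.3% were higher. The order of members changed with the class, since Gimap1 stood above Gimap4 in lymphatic-marker cells. The lymphatic-marker cells were also the deepest, with a median of 9886 UMIs against 3518 UMIs in capillary-marker cells. Counted per cell, they held more family transcripts, 6.56 UMIs against 5.23 UMIs, and only Gimap4 (0.938 against 1.64 UMIs) and Gimap8 (0.293 against 0.330 UMIs) were fewer per cell. Per cell, Gimap5 had 0.910 UMIs in lymphatic-marker and 0.449 UMIs in capillary-marker cells, and Gimap6 had 2.46 and 1.78 UMIs. Markers of other cells moved with this class. The 6 stellate or fibroblast markers were at 1332 CPM in lymphatic-marker cells, 99.8% of it from Dcn, and at 5.02 CPM in capillary-marker cells. The 7 T cell markers were at 4.38 CPM (46 UMIs, 95.7% from Cd2, with Cd3e, Cd3d, Cd3g, Trac and Trbc2 at 0) and 0.286 CPM (7 UMIs), and the 6 hepatocyte markers at 15.4 CPM and 104.5 CPM. Of the 6 stellate or fibroblast genes 4 had a UMI in lymphatic-marker cells, with Col1a1 and Lum at 0, and the part of these markers in the Gimap levels was not tested.

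In large-vessel-marker cells Gimap4 and Gimap6 were lower in both libraries, and Gimap1 was not. In sph/sph, Gimap4 was at 226 CPM in large-vessel-marker and 426 CPM in capillary-marker cells (ratio 0.530, 0.490 to 0.573), and Gimap6 at 243 CPM and 461 CPM (0.527, 0.488 to 0.568). Gimap1 was at 197 CPM and 195 CPM, a ratio of 1.01 (0.924 to 1.10). Gimap8 was at 57.8 CPM and 85.6 CPM (0.675, 0.574 to 0.789), Gimap5 at 86.8 CPM and 116 CPM (0.746, 0.654 to 0.847) and Gimap9 at 55.4 CPM and 71.4 CPM (0.776, 0.657 to 0.911), lower but within 1.5-fold. In that comparison 2 of 6 members were at least 1.5-fold lower and none higher, where 11.9% of 7189 measured genes were lower and 15.2% higher. In sph/+ the large-vessel-marker cells were set against LSEC-marker cells, and there Gimap8 had the lowest ratio. Gimap4 was at 248 CPM and 441 CPM (ratio 0.562), Gimap6 at 323 CPM and 512 CPM (0.630), Gimap8 at 53.8 CPM and 109 CPM (0.492) and Gimap5 at 69.4 CPM and 107 CPM (0.647). Those 4 members were at least 1.5-fold lower and none was higher, where 17% of 7238 measured genes were lower and 15.3% higher. Gimap9 was at 61.3 CPM and 65.4 CPM (0.937, 0.751 to 1.16). Gimap1 went the other way, at 280 CPM in large-vessel-marker and 195 CPM in LSEC-marker cells of sph/+, a ratio of 1.44 (1.30 to 1.59). Per cell the family had 5.29 UMIs in large-vessel-marker and 5.23 UMIs in capillary-marker cells of sph/sph, so the lower family sum there holds as a share of transcripts and not per cell. Gimap4 (1.38 against 1.64 UMIs) and Gimap6 (1.48 against 1.78 UMIs) were fewer per cell too. Gimap1 (1.20 against 0.753 UMIs), Gimap8, Gimap9 and Gimap5 were more. In sph/+ the family had 5.53 UMIs in large-vessel-marker and 6.48 UMIs in LSEC-marker cells, per cell. Stellate or fibroblast markers were at 287 CPM in the sph/sph large-vessel-marker cells, 95.8% of it from Dcn, with Lrat and Lum at 0, and their part in these values was not tested. The calls of Gimap6 and Gimap5 in sph/+ were lost, with log2 ratios of -0.43 and -0.34, when barcodes scored as doublets were kept.

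**Figure D3:**
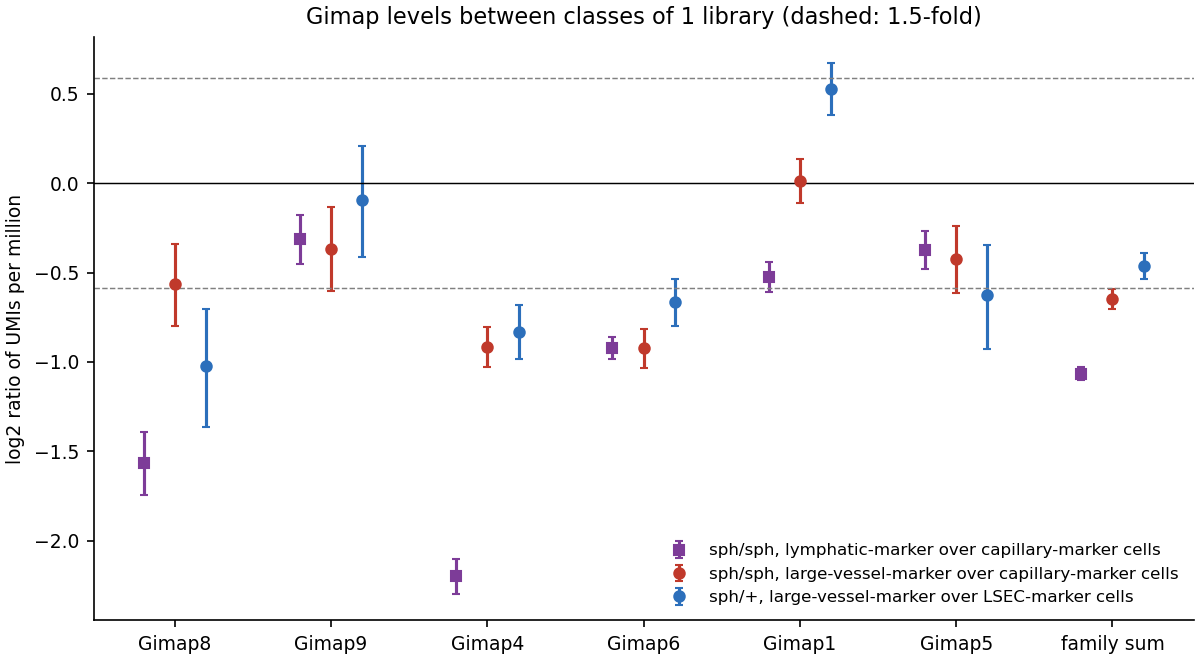
Log2 ratios of CPM between classes of the same library for the 6 abundant members and their sum, with 95% counting intervals; dashed lines mark 1.5-fold. Gimap4 in lymphatic-marker cells lies lowest at -2.20, and Gimap1 in sph/+ large-vessel-marker cells lies highest at 0.53.

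The ratio of members to each other shows the same shifts without a scale of total UMIs. Gimap1 had 0.810 UMIs per Gimap6 UMI (0.725 to 0.904) in large-vessel-marker cells of sph/sph and 0.869 (0.760 to 0.994) in those of sph/+. The ratio was 0.423 in capillary-marker cells of sph/sph and 0.380 in LSEC-marker cells of sph/+. Gimap4 had 0.381 UMIs per Gimap6 UMI (0.354 to 0.410) in lymphatic-marker cells of sph/sph, against 0.924 (0.899 to 0.949) in capillary-marker cells. In LSEC-marker cells it had 1.44 (1.28 to 1.63) in sph/sph and 0.860 (0.844 to 0.877) in sph/+, and in low-LSEC-marker cells of sph/sph 1.53. Gimap4 was thus above Gimap6 in the sinusoidal-marker cells of sph/sph and below it in those of sph/+. The same held in cycling-marker cells, at 1.12 (1.04 to 1.20) in sph/sph and 0.839 (0.747 to 0.941) in sph/+. Over the 12 classes of at least 50 cells in both libraries, Pearson r with the summed family, on log2(CPM + 5), was 0.97 for Gimap4, 0.87 for Gimap6 and for Gimap8, 0.61 for Gimap9, 0.50 for Gimap5 and 0.12 for Gimap1. The sum contains each member, and classes of 1 library share its depth and mouse. Gimap4 spanned 92.8 to 548 CPM over these classes, while Gimap9 spanned 55.4 to 83.2 CPM.

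Classes present in both libraries were then compared between them. In LSEC-marker cells the summed family was at 1433 CPM in sph/sph and 1430 CPM in sph/+, a ratio of 1.0025 (0.956 to 1.05). Opposed members lay behind that sum. Gimap4 was at 548 CPM in sph/sph and 441 CPM in sph/+ (ratio 1.24, 1.15 to 1.34), while Gimap6 was at 379 CPM and 512 CPM (0.740, 0.674 to 0.811). Gimap5 was at 132 CPM and 107 CPM (1.24, 1.05 to 1.44). None of 6 members was 1.5-fold apart, where 19.9% of 7381 genes were higher and 22.4% lower in sph/sph. The 208 sph/sph cells had a median of 7 LSEC and 4 capillary markers, and the 9793 sph/+ cells 10 and 1, so the class differs in make-up. In large-vessel-marker cells the family was at 866 CPM in sph/sph and 1036 CPM in sph/+ (0.836, 0.784 to 0.891), with Gimap1 at 197 CPM and 280 CPM (0.702) and Gimap6 at 243 CPM and 323 CPM (0.754). No member passed 1.5-fold there either, where 14.7% of 7318 genes were higher and 15.2% lower. In arterial-marker cells the family was at 1325 CPM in 583 sph/sph cells and 1041 CPM in 71 sph/+ cells, and the sph/+ cells had a median of 9 LSEC markers. Most cells of that class lay exactly at its minimum of 5 arterial markers, 387 in sph/sph and 60 in sph/+. Gimap5 was at 100.5 CPM in sph/sph and 64.6 CPM in sph/+ there (1.55, 1.06 to 2.36) and Gimap8 at 75.7 CPM and 49.0 CPM (1.54, 0.995 to 2.51, on 226 and 22 UMIs). So 2 of 6 members were at least 1.5-fold higher and none lower, where 20.3% of 7475 genes were higher and 27.2% lower. In cycling-marker cells it was at 1126 CPM in 710 sph/sph cells and 1430 CPM in 131 sph/+ cells, with Gimap6 at 351 CPM and 560 CPM (0.627, 0.572 to 0.688). That made 1 of 6 members lower and none higher, where 29.5% of 7697 genes were lower and 17.2% higher. Cycling-marker cells differ in make-up too, with medians of 0 LSEC and 8 capillary markers in sph/sph and 11 and 1 in sph/+. Their median depths were 5150 UMIs in sph/sph and 8666 UMIs in sph/+.

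The sph/+ LSEC-marker cells were then split along the liver lobule, whose sinusoids run from portal to central vessels. Central-side cells had at least 3 of Rspo3, Wnt2, Wnt9b, Kit, Thbd and Cdh13 and more of them than of Msr1, Ntn4, Adgrg6, Efnb2, Dll4 and Il1a, and portal-side cells the reverse. Efnb2 and Dll4 are arterial markers too. The summed family was at 1600 CPM (1579 to 1622) in 3054 central-side cells, 1454 CPM (1432 to 1476) in 2869 cells between and 1294 CPM (1278 to 1310) in 3870 portal-side cells. Gimap6 was at 592, 519 and 452 CPM in that order, and Gimap4 at 484, 456 and 400 CPM. Gimap5 was at 122, 117 and 90.5 CPM, Gimap9 at 79.7, 62.2 and 57.2 CPM, and Gimap8 at 120, 110 and 101 CPM. These 5 members were in 1 order, highest on the central side. Intervals of neighbouring steps overlapped for Gimap8 at both steps, for Gimap5 from central-side to between, and for Gimap9 from between to portal-side. Gimap1 was at 202, 189 and 193 CPM, with no such order. The ratio of central-side over portal-side was largest for Gimap9, 1.39 (1.28 to 1.52), followed by Gimap5 at 1.35 (1.26 to 1.45), and smallest for Gimap1, 1.05 (0.999 to 1.10). None of the 6 was 1.5-fold apart, where 3.36% of 6836 genes were higher and 1.96% lower. Portal-side cells were deeper, with medians of 4245 UMIs in central-side and 4703 UMIs in portal-side cells. In sph/sph only 64 central-side and 32 portal-side cells were found, with 1393 CPM and 1357 CPM (ratio 1.03, 0.889 to 1.19). Gimap5 had a ratio of 1.51 (0.864 to 2.79, on 66 and 16 UMIs) and Gimap1 of 0.632 (0.438 to 0.922), so 1 of 6 members was at least 1.5-fold higher and 1 lower, where 18.3% of 7378 genes were higher and 23.6% lower. Gimap8, at 0.843 (0.508 to 1.44), lay below 1 there and above 1 in sph/+.

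**Figure D4:**
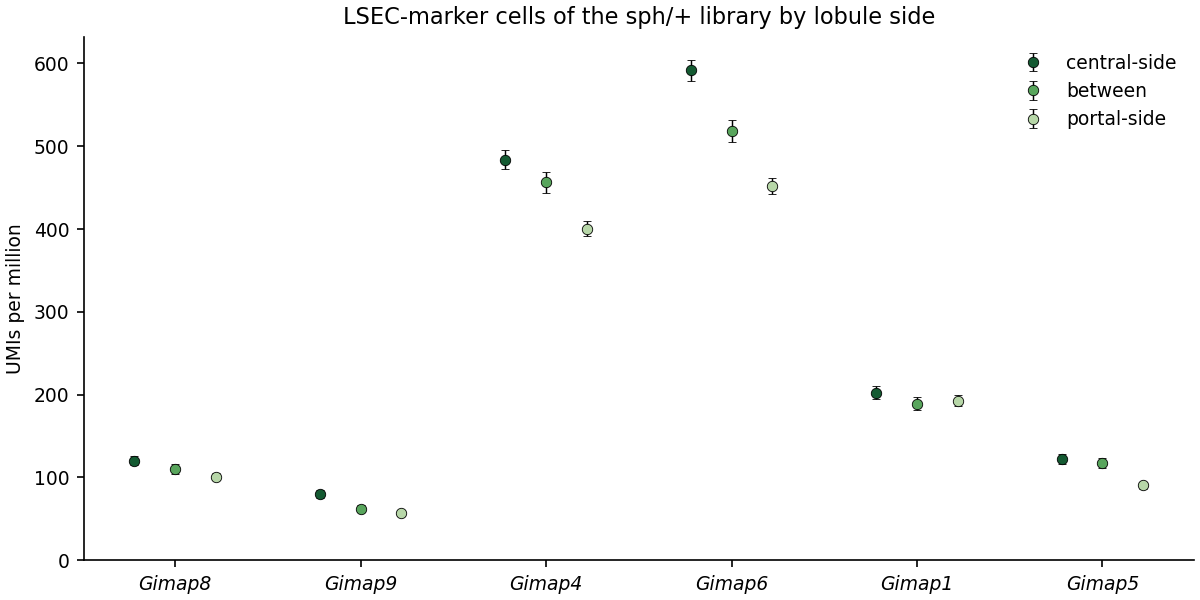
CPM of the 6 abundant members in LSEC-marker cells of the sph/+ library, split into central-side, between and portal-side cells, with 95% exact Poisson intervals. All members but Gimap1 step down from the central to the portal side, with overlapping intervals at some steps for Gimap8, Gimap5 and Gimap9.

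Pairs of the abundant genes of the cluster were found together in the same cells at 0.909 to 1.15 times the product of their separate frequencies. Whether the pairs are independent was not tested. Co-detection was measured in the largest class of each library after thinning to 2000 UMIs, as the share of cells with both genes over the product of both shares. Gimap4 and Gimap6 were both found in 1839 of 5824 capillary-marker cells of sph/sph, 31.6% against a product of 30.8%, a ratio of 1.03 (0.988 to 1.07). In LSEC-marker cells of sph/+ they were both found in 3399 of 9421 cells, 36.1% against 35.4% (1.02, 0.993 to 1.05). Gimap1 and Gimap5, whose starts lie 7.1 kb apart, had 1.05 (0.956 to 1.16) in sph/sph. Over the 15 pairs the ratio had a median of 1.01 in sph/sph, from 0.909 for Gimap8 with Gimap9 to 1.15 for Gimap9 with Gimap5. In sph/+ the median was 1.01, from 0.977 for Gimap4 with Gimap1 to 1.04 for Gimap1 with Gimap5. No interval of the 30 left out 1. Each interval covers the error of the joint count only and takes the product of shares as fixed. The joint count is bound by both shares, so these intervals cannot decide whether a pair is independent. For 78 pairs of a member with a pan-endothelial marker, which lie elsewhere in the genome, the medians were 1.002 in both libraries. Some of these markers were found in nearly all cells, such as Ptprb in 99.97% and Kdr in 98.2% of the sph/+ cells. Ratios with such a marker are held near 1, so these medians are no yardstick for the Gimap pairs. The intervals of the Gimap pairs leave room for departures of several percent in the abundant pairs and more in the others.

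The number of members found per cell was set beside that of independent genes. No member was found in 8.34% (7.65 to 9.08) of the thinned capillary-marker cells of sph/sph, where independent genes would give 7.76%, and in 6.76% (6.26 to 7.29) of the thinned LSEC-marker cells of sph/+, against 6.34%. Exactly 2 members were found in 35.4% (34.1 to 36.6) of the sph/sph cells, against 36.1%, and in 35.9% (34.97 to 36.9) of the sph/+ cells, against 36.9%. Exactly 4 were found in 6.85% (6.22 to 7.53) of the sph/sph cells, against 6.16%, a share above that of independent genes, and in 7.13% (6.62 to 7.67) of the sph/+ cells, against 6.89%. Every other interval for 0 to 6 members, in both libraries, held the independent value. These intervals too take the independent value as fixed, so they cannot decide whether the members are independent. All 6 abundant members were found together in 3 of the 9421 sph/+ cells. The variance of the summed family UMIs was 1.15 times their mean in sph/sph and 1.14 times in sph/+, above the 1 of Poisson counts. No interval was computed for it. Among single members it went from 1.02 for Gimap8 to 1.16 for Gimap6 in sph/sph, and from 1.04 for Gimap9 to 1.12 for Gimap4 in sph/+.

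**Figure D5:**
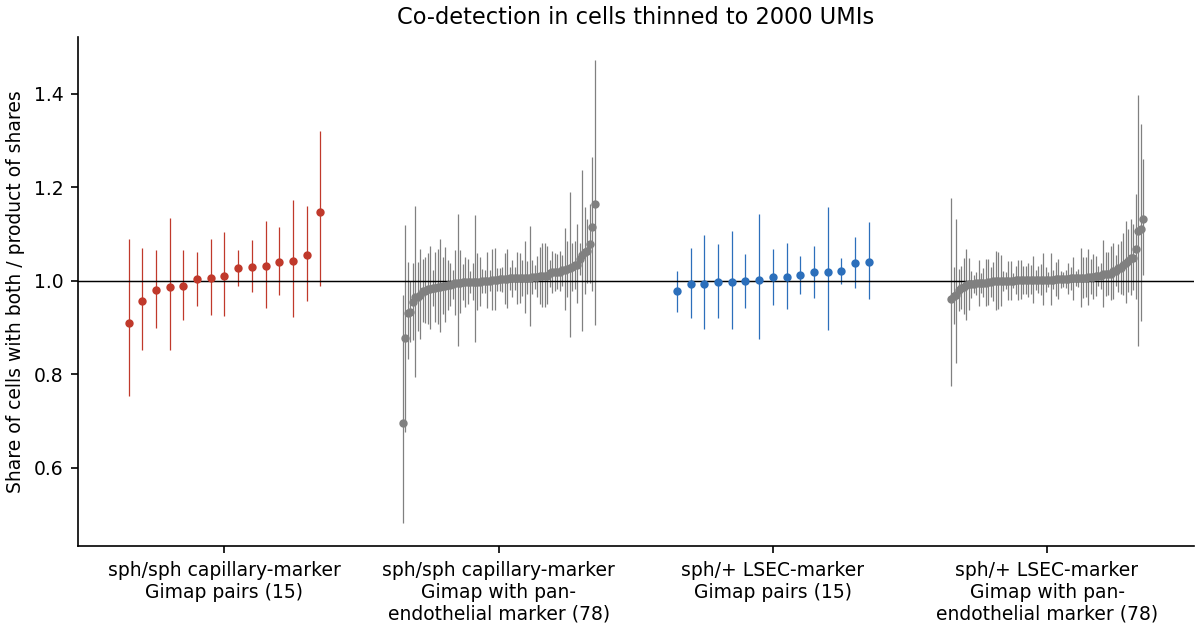
Share of cells with a UMI of both genes over the product of the separate shares, in cells thinned to 2000 UMIs. Shown are the 15 pairs of Gimap genes and 78 pairs of a Gimap gene with a pan-endothelial marker. The 95% exact intervals are those of the joint count, with the product taken as fixed. The Gimap pairs lie around 1 in both libraries, from 0.909 to 1.15 in sph/sph and from 0.977 to 1.04 in sph/+.

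Of the 6 protein-coding genes that flank the cluster, 3 (Tmem176b, Tmem176a and Zfp775) lay outside the range of the abundant members' ratios, 0.672 to 1.04. On the Gimap3 side, Tmem176b and Tmem176a, which encode membrane proteins with cation channel activity, were higher in sph/sph. Tmem176b was at 193 CPM in sph/sph and 87.9 CPM in sph/+ (ratio 2.19, 2.11 to 2.27), and Tmem176a at 120 CPM and 70.3 CPM (1.70, 1.63 to 1.78). On the Gimap8 side, Zfp775, a zinc finger gene, was at 3.42 CPM in sph/sph and 7.18 CPM in sph/+ (0.475), below the level needed to be measured. AI854703 had 7 and 9 UMIs (0.744, 0.235 to 2.25), and Gm44965 had none. Aoc1, which encodes a diamine oxidase, had 0 UMIs in both libraries, which allows up to 3 UMIs in each.

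Among 8393 genes with at least 20 CPM in 1 of the 12 classes, those most like the summed family over the classes were Tmtc2 (Pearson r 0.95), Exoc3l (0.95), Qk (0.95), Cmpk2 (0.94) and Fam102b (0.94). Qk, which encodes the RNA-binding protein quaking, was at 198 CPM in lymphatic-marker and 414 CPM in capillary-marker cells of sph/sph. The genes most opposed were Olfml2a (-0.96), Lrrc42 (-0.93) and Tspan3 (-0.92). Tspan3, a tetraspanin, was at 172 CPM in lymphatic-marker and 26.6 CPM in capillary-marker cells of sph/sph. These orders rest on few classes of 2 mice and are given as a description.

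Another group of immune GTPases gave other ratios in these libraries. All 17 measured interferon-induced GTPases passed 1.5-fold upward in sph/sph, where 18.8% of all measured genes did. They are Gbp and Irg genes, which act against microbes inside cells, and Gvin1. Their median log2 ratio was 3.64, against -0.07 over all measured genes and -0.24 over the 6 measured Gimap members. Those with the largest ratios were Gbp10, at 41.9 CPM in sph/sph and 0.147 CPM in sph/+, Tgtp1, at 34.8 CPM and 0.189 CPM, and Gbp8, at 48.5 CPM and 1.07 CPM. Of 22 genes tied to GIMAP5 or the kinase GSK3 in earlier work, 21 were measured, 2 were at least 1.5-fold higher and 3 lower, against 18.8% higher and 22% lower over all measured genes. The largest were Myc, a growth-promoting transcription factor, at 27.5 CPM in sph/sph and 1.22 CPM in sph/+, Sgms1, a sphingomyelin synthase, at 81.4 CPM and 157 CPM, and Foxo3, a forkhead factor, at 13.9 CPM and 26.0 CPM. Gsk3b was at 201 CPM in sph/sph and 257 CPM in sph/+ (ratio 0.783). Of 11 calcium and lysosome genes, 10 were measured, and 1 was higher and 3 were lower, against the same 18.8% and 22%. The lower ones were the lysosomal membrane genes Lamp2, at 229 CPM in sph/sph and 975 CPM in sph/+, Lamp1, at 340 CPM and 819 CPM, and the lysosomal channel gene Mcoln1, at 10.9 CPM and 20.3 CPM. Of 13 pan-endothelial markers 2 were higher and 4 lower, against the same shares of all genes. None of these 3 counts is read as particular to its list.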

How the data were processed

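Liver endothelial cells of 1 Gimap5sph/sph and 1 Gimap5sph/+ mouse were profiled with the 10x Chromium 3' v3 kit. The authors deposited raw UMI counts per gene and barcode, processed with Cell Ranger 3.0 against mm10, per the submitters' processing notes; the matrix header names software version 3.1.0, and the annotation release is not given in the sources used here. Gene positions are from GENCODE vM21 (GRCm38, the same build), promoters from RefSeq.

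Barcodes with at least 1000 UMIs, 500 genes and at most 15% mitochondrially encoded UMIs were kept, 13094 of 16386 in sph/sph and 12304 of 13136 in sph/+. The libraries held 68983780 and 64460283 UMIs. Scrublet (scanpy 1.11.5) marked 0 doublets by its automatic threshold, so the highest scores at 0.8% per 1000 barcodes were removed, 1773 and 1324. Barcodes with 3 markers of another type were set aside. Levels are UMIs over summed cells scaled to 1000000 (CPM), a measured gene reaches 20 CPM in either group, and a call is a 1.5-fold difference with counts of 0 set to 3. Calculations used Python 3.11.15, numpy 2.4.6, scipy 1.17.1 and pandas 2.3.3, and fold calls were tested on simulated data.

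The members, lists, tests and alternatives were chosen with earlier results of these data known, and marker minimums of the classes and the central-side and portal-side lists were set after the files were opened. The named genes are all members, the coding genes flanking the cluster, the 5 most and 3 least correlated with the family, and up to 3 per list with the largest log2 ratio.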

Additional observations from a re-analysis of the deposited data

Results flagged for a closer look

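Between marker classes, the sph/sph over sph/+ ratio went in opposite directions for 2 members and for the family sum, a difference that was not tested. Gimap4 had a ratio of 1.39 in arterial-marker cells and 0.838 in cycling-marker cells. Gimap6 had 1.31 in arterial-marker and 0.627 in cycling-marker cells. The family had 1.27 in arterial-marker and 0.787 in cycling-marker cells. The arterial-marker class held 583 sph/sph cells and 71 sph/+ cells with medians of 0 and 9 LSEC markers, 387 and 60 of them exactly at its minimum, so its make-up differs between libraries. That of the cycling-marker class differs too, with medians of 0 LSEC and 8 capillary markers in sph/sph and 11 and 1 in sph/+.

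Outside the endothelial cells, members were above the level of 3 counts in kept barcodes with at most 2 pan-endothelial markers. In 108 such barcodes of sph/sph, 93 of them marked by hepatocyte genes, Gimap4 was at 129 CPM (29 UMIs in 11 barcodes), Gimap9 at 40.0 CPM and Gimap6 at 35.6 CPM. In 79 such barcodes of sph/+, 62 of them marked by cholangiocyte genes, Gimap9 was at 50.2 CPM (34.3 to 70.8; 32 UMIs in 24 barcodes). Gimap4 had 7 UMIs and Gimap6 had 3 UMIs there, whereas in sph/+ endothelial cells both exceeded Gimap9, at 434 and 506 CPM against 65.5 CPM.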

How the results depend on the processing

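With 1 library per genotype, only counting error is covered, and depth limits Gimap7 and Gimap3. Alternatives by UMIs per cell, by equal-depth classes and with hepatocyte-marked barcodes kept were chosen after seeing the data. No paired analysis was possible because each genotype has 1 library. For sph/sph over sph/+, the family's log2 ratio of -0.29 was -0.21 with each cell weighted equally, -0.11 without lymphatic-marker and cycling-marker cells, -0.22 scaled by the median ratio, which shifts all genes by 0.07, and -0.23 per cell. That of Gimap5, near 0 (0.0037), was 0.090, 0.075 and 0.063 in the last 3 of these. The count of members 1.5-fold apart, 0, was 1 with the stricter filter (Gimap8) and 1 with no floor (Gimap7). Large-vessel-marker over LSEC-marker cells of sph/+, -0.46, was -0.32 with doublet scores ignored and -0.23 per cell. Large-vessel-marker over capillary-marker cells of sph/sph, -0.65, was -0.82 with 1 more marker required, -0.84 with classes set at 2000 UMIs per cell and 0.015 per cell, a change of sign. Lymphatic-marker over capillary-marker cells, -1.06, was -1.01 with equal weights, -1.11 with classes set at 2000 UMIs and 0.33 per cell, again with a change of sign, as for Gimap6 there (0.47 per cell, against -0.92). Central-side over portal-side cells, 0.31, was 0.33 with equal weights, 0.28 with doublet scores ignored, 0.16 per cell and 0.39 with classes set at 2000 UMIs. The difference in cells with any member, -4.73 percentage points, was -5.80 at 1000 UMIs, -2.86 at 3000 UMIs and -2.03 unthinned. Co-detection medians stayed between 0.999 and 1.05. Of 246 alternative values, 168 stayed within the counting interval of the main value or, for the count of members, equalled it. Another 75 moved outside, and 3 changed sign from a main value past 1.5-fold. Among all 246, 25 crossed the 1.5-fold bound in either direction and 17 changed the sign of the log2 ratio.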
